A study of Citrus sinensis with 24 samples.

Results

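The change in gene expression between 45 and 142 days post anthesis (DPA) was compared between fruits of Succari, an acidless sweet orange, and the mean of the same change in fruits of Newhall, Xinhui and Bingtang. For each gene, the value is the log2 change from 45 to 142 DPA in Succari minus the mean change of the other 3 varieties. It is here called the stage-change difference, and it is positive where a gene rose more, or fell less, in Succari. All 24166 genes of the deposited table entered, and the 20739 with at least 0.3 CPM (reads of a gene per 1000000 counted reads of the library) in at least 3 libraries were tested. The stage-change difference equals the Succari difference at 142 DPA minus the Succari difference at 45 DPA, so each called gene was also sorted by the stage at which Succari stood apart. RNA-seq read counts came from 24 libraries, 3 of each variety and stage. Succari is labelled acidless, Bingtang low in acid, and Newhall and Xinhui normal in acid. Every library was made from total RNA of fruits of field-grown trees, with no treatment, and the labels name neither the part of the fruit nor the number of trees behind a library.

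Juice cells of citrus fruits store citric acid in the vacuole early in development, with protons pumped across the vacuolar membrane, and the acid usually declines later while sugars accumulate. Acidless varieties hold little of it at maturity. Malate dehydrogenase, which interconverts malate and oxaloacetate, and glucose-6-phosphate isomerase, which interconverts glucose 6-phosphate and fructose 6-phosphate, lie in the central metabolism that feeds both pools. The fruit also contains seeds, whose late maturation is marked by oil-body, storage and late embryogenesis abundant proteins.

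Libraries held 3.8e+06 to 5.9e+06 counted reads. Succari 142 DPA replicate 3 stood apart from its group: the SD over genes of its log2 difference was 0.863 to replicate 1 and 0.836 to replicate 2, against 0.359 to 0.601 for the other 22 pairs of replicates. The summed level of 5 seed maturation genes (oleosin Cs2g27550, GEA6/Em6 Cs7g30920, vicilin-like Cs1g23800, Beta-TIP Cs5g17210 and LEA4-5 orange1.1t02243) moved with this split. When chosen, these 5 genes were known from earlier results of these data to be uneven among the Succari libraries at 142 DPA. Their agreement with the split was thus given by the choice and is only a description. Their summed level was 3871, 3939 and 36.0 CPM in Succari at 142 DPA, against 4.13, 6.16 and 32.3 CPM as the lowest, median and highest of the 9 other libraries at that stage. At 45 DPA the sum was 1.35, 0.406 and 1.76 CPM in Succari, against 0.341, 0.939 and 3.02 CPM as the lowest, median and highest of the 9 others. None of the 5 was called in the stage-change difference, for which edgeR's quasi-likelihood test gave adjusted p-values of 0.0598 (Cs1g23800) or more. With few reads at 45 DPA that difference was poorly estimated, as in Cs1g23800 (7.46, SE 2.75). At 142 DPA itself each of the 5 was higher in Succari than the mean of the others. The log2 difference there was 5.53 (orange1.1t02243) to 10.29 (Cs2g27550). The genes were chosen with their unevenness at that stage known, so this difference too is only a description. Succari replicate 3 lay within the range of the others for Cs1g23800 (7.28 CPM, highest other 8.33) and Cs5g17210 (6.16 CPM, highest other 11.6). It lay above that range for Cs2g27550, Cs7g30920 and orange1.1t02243. The part of these 5 genes in the results that follow was not tested. In bulk fruit, fewer cells of a type and less RNA per cell cannot be told apart. Markers of the fruit tissues themselves could not be matched to these gene IDs and were not analysed here.

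Most genes whose stage change differed in Succari had a higher change there. By edgeR's quasi-likelihood test, with calls at an adjusted p below 0.05 and a 2-fold or larger size, 1376 genes had a higher change in Succari (6.63% of genes tested) and 399 a lower one (1.92%), in all 1775 (8.56%). The median stage-change difference over all genes tested was 0.03 on the log2 scale. Among the genes with a higher change, the median fitted change was 0.03 in Succari and -2.51 in the mean of the other varieties. Where the change was lower, it was -0.60 in Succari and 1.01 in the others. These medians are signed, so that rises and falls cancel in them, and they give no typical size of the Succari change. Of the 1376 higher genes, 455 fell in both and 398 fell in the others with no called change in Succari. Another 265 rose in Succari with no called change in the others, and 110 rose in Succari and fell in the others. A further 75 rose in both, and 73 had no called change in either. Over all genes, 110 rose in Succari and fell in the others, and 8 fell in Succari and rose in the others. With replicate 3 as the only Succari library at 142 DPA, a setting chosen after the data were seen, 335 genes were higher and 223 lower, of which 280 and 160 were also called with all libraries.

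The higher calls arose mainly at 142 DPA, while many of the lower calls could not be assigned to a stage. Succari itself differed from the mean of the others at 142 DPA in 2099 genes that were higher (10.1% of genes tested) and 378 that were lower (1.82%). At 45 DPA it differed in 450 genes that were higher (2.17%) and 218 that were lower (1.05%). A gene was taken to arise at a stage when Succari differed at that stage and not at the other, by edgeR's test and the same thresholds. Of the 1376 higher calls, 1024 (74.4%) arose at 142 DPA and 74 (5.38%) at 45 DPA. Of the 399 lower calls, 131 (32.8%) arose at 142 DPA and 85 (21.3%) at 45 DPA. At both stages Succari differed with opposite sign in 40 genes and with the same sign in 28, and 393 were called at neither stage alone. These 393 were 233 of the higher calls (16.9%) and 160 of the lower calls (40.1%). A call at one stage and none at the other does not show that the sizes differ, so the sizes were also compared through the sum of both differences. By that test 884 of the 1155 genes assigned to 142 DPA kept that stage, 271 were unresolved and 0 moved to 45 DPA. Of the 159 assigned to 45 DPA, 93 kept it and 66 were unresolved. Over all calls, that test left 504 of the 1376 higher (36.6%) and 209 of the 399 lower ones (52.4%) unresolved. Leaving out Succari 142 DPA replicate 3 raised the lower genes arising at 142 DPA to 235, those with opposite sign to 62 and those with the same sign to 59. Without Succari 45 DPA replicate 2, 25 genes had opposite sign and 15 the same sign, and the same-sign genes numbered 18 without Succari 45 DPA replicate 1 or replicate 3 and 17 without Succari 142 DPA replicate 2.

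**Figure D1:**
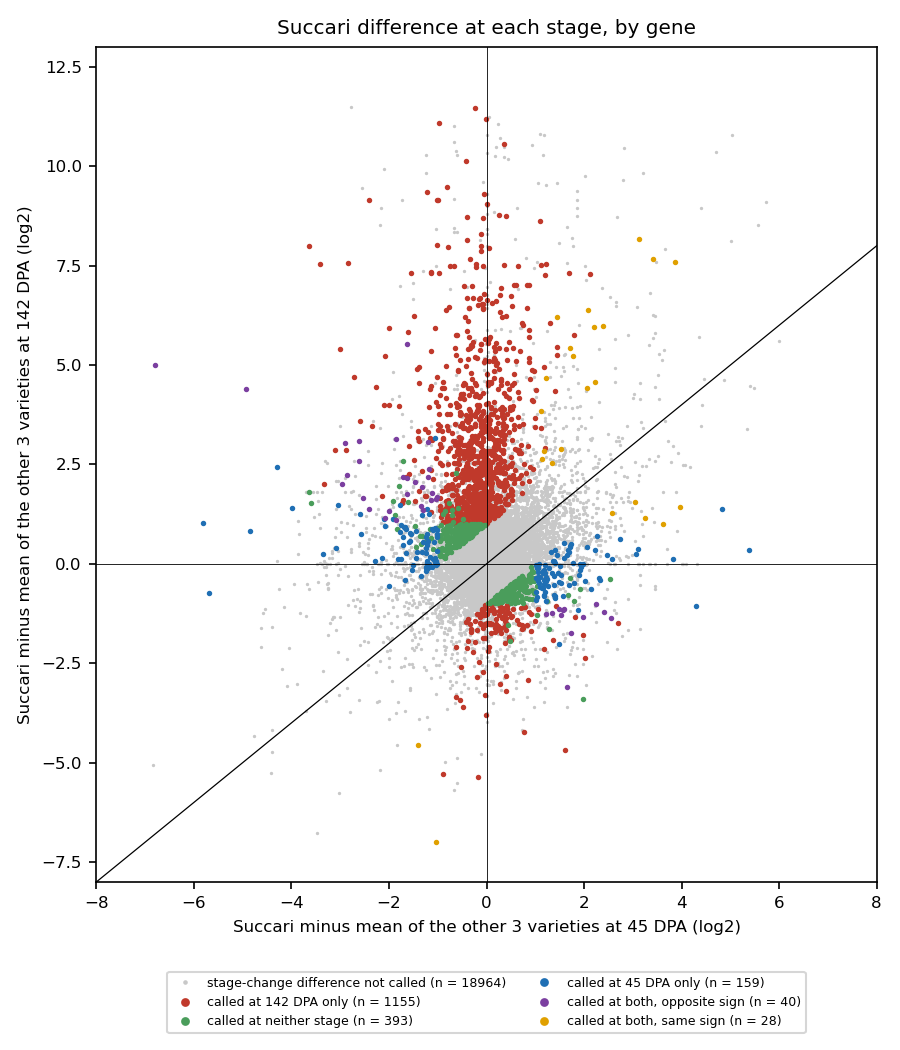
Each point is a gene, with the log2 difference between Succari and the mean of the other 3 varieties at 45 DPA on the horizontal axis and at 142 DPA on the vertical axis. The diagonal marks no stage-change difference, 5 genes lie outside the plotted range, and most coloured points (1155 of 1775) are the red ones called at 142 DPA only, near 0 on the horizontal axis.

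Genes that arose at 142 DPA with a higher change in Succari were mostly genes that fell in the other varieties. Their median level at 142 DPA was 5.30 CPM in Succari and 0.807 CPM in the others. At 45 DPA it was 6.76 CPM in Succari and 7.17 CPM in the others. Genes arising at 142 DPA, higher or lower, were sorted by a call at that stage and none at 45 DPA. Their levels at both stages are thus given as a description. Of the 1024 higher genes, 378 fell in both, and 293 had no called change in Succari and fell in the others. A further 96 rose in Succari and fell in the others. Another 184 rose in Succari with no called change in the others, 39 rose in both and 34 had no called change in either. For orientation, of all genes tested 7366 changed in Succari (35.5%), 3766 up and 3600 down, against 8092 (39.0%) in the mean of the others, 3615 up and 4477 down. Lower genes arising at 142 DPA had a median of 4.62 CPM in Succari and 15.8 CPM in the others at that stage, and 10.2 CPM in Succari and 9.24 CPM in the others at 45 DPA. Here 41 of the 131 rose in the others with no called change in Succari. Another 30 fell in Succari with no called change in the others. Of the rest, 28 fell in both, 17 rose in both and 10 had no called change in either. The remaining 5 fell in Succari and rose in the others.

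**Figure D2:**
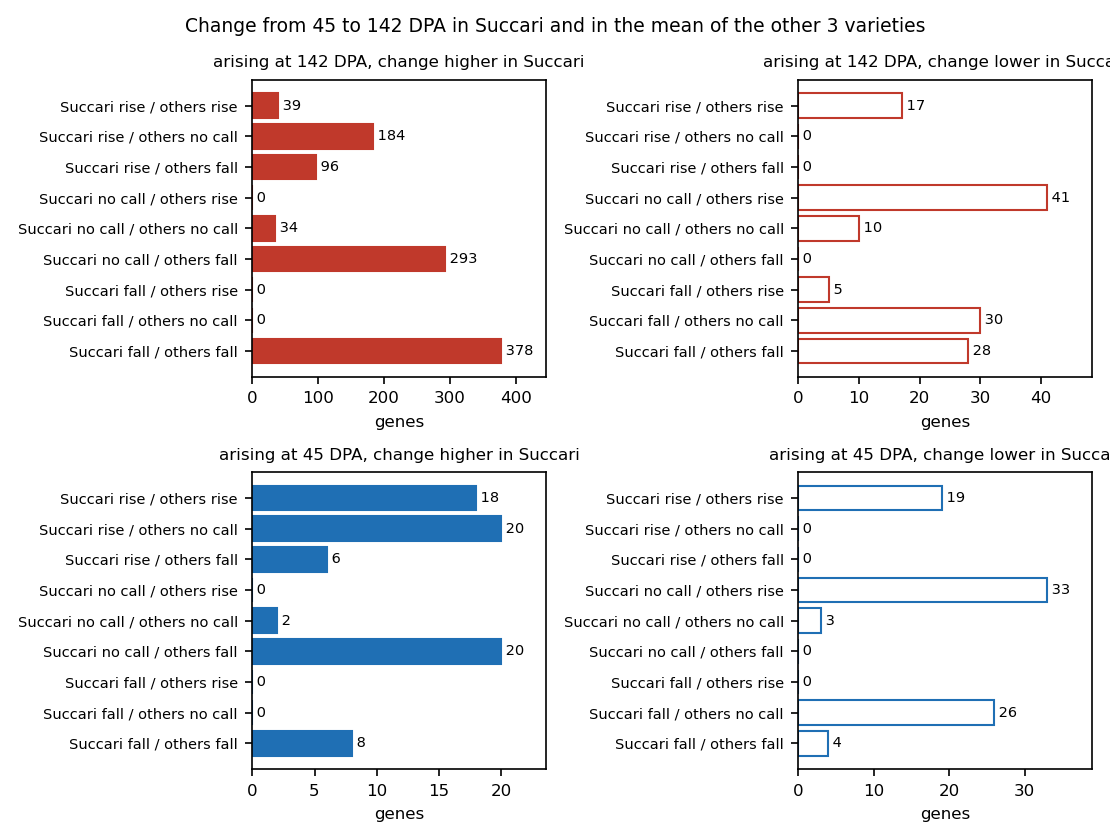
Bars count genes by their called change from 45 to 142 DPA in Succari and in the mean of the other 3 varieties, for the genes arising at 142 DPA (red) and at 45 DPA (blue), with a higher (filled) or lower (open) stage-change difference. Among the 1024 genes in the upper left panel, 378 fell in both and 293 fell in the others with no called change in Succari.

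The 3 Succari libraries at 142 DPA were uneven in many of these higher genes. Replicate 3 lay more than 2-fold below both other replicates in 508 of the 1024 genes (49.6%), against 1142 (5.51%) of all genes tested. All 3 libraries lay within 2-fold of each other in 267 (26.1%) of them, against 83.4% of all genes tested. Among the lower genes arising at 142 DPA, 90 of 131 were within 2-fold, and so were 58 of the 74 higher and 68 of the 85 lower genes arising at 45 DPA, but only 11 of the 28 higher genes with opposite sign and 3 of the 17 higher genes with the same sign at both stages. With replicate 3 alone, 183 higher and 76 lower genes arose at 142 DPA, and 41 and 64 at 45 DPA. The seed maturation sum given above moved with the same split of libraries, but its genes were chosen with that unevenness known.

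**Figure D3:**
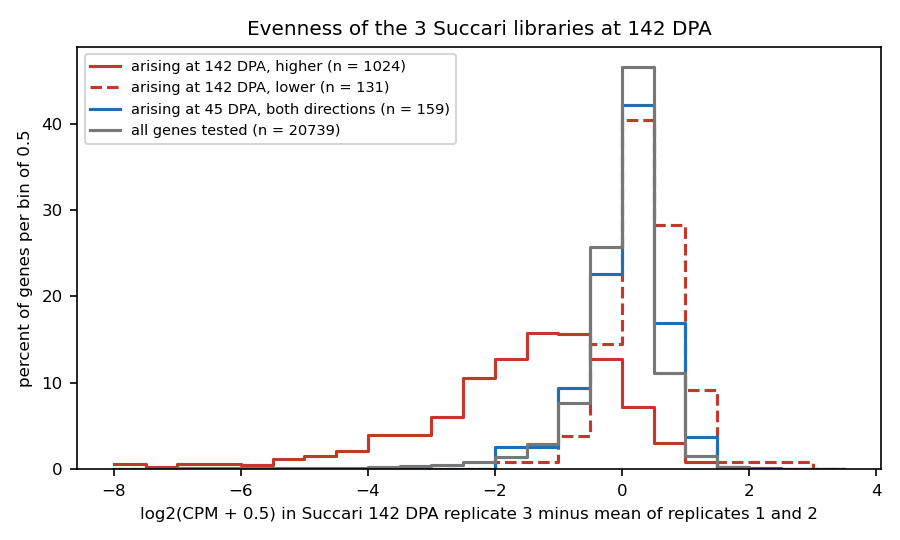
Lines give the percent of genes in each bin of 0.5 of the log2(CPM + 0.5) difference between Succari 142 DPA replicate 3 and the mean of replicates 1 and 2. The median was -1.34 for the 1024 higher genes arising at 142 DPA, against 0.35 for the 131 lower ones, 0.17 for the 159 genes arising at 45 DPA and 0.08 for all genes tested.

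Named genes come from a list of 72 that the study tied to the sugar/acid ratio on these same samples, so counts over it are not independent evidence. Of the 72, 21 had a higher change in Succari (29.2%) and 6 a lower one (8.33%), beside 6.63% and 1.92% of all genes tested. Among these 27, 25 arose at 142 DPA (65.1% of all 1775 calls did) and 0 at 45 DPA alone (8.96%). The other 2 differed at both stages. Of the higher genes, only Cs3g24700, Cs4g14130 and Cs9g17670 were called against each of the other varieties taken singly. All the lower genes except Cs7g13310 were. The other 45 were not called, and 20 of those had no read in at least 1 group, where the difference is poorly estimated. By category, 3 transport genes were higher and 1 lower of 9, 3 signaling genes higher of 6, 2 transcription genes higher of 7, 5 metabolism genes higher and 2 lower of 20, and 5 genes of unknown function higher and 3 lower of 21. One gene was higher in each of protein degradation (of 3), development (of 2) and stress response (of 4). The 20 higher genes arising at 142 DPA had a median difference of 2.39 on the log2 scale. In 17 of them all 3 Succari libraries lay above all 9 others at 142 DPA. That held for 288 of the 1024 higher genes arising at 142 DPA (28.1%) and for 1154 of all genes tested (5.56%). The 20 listed genes were sorted by a call at that stage, so such separation is partly given by the choice. All 20 rose in Succari between the stages, whereas the mean of the others rose in 5, had no call in 15 and fell in 0. Only 9 of the 20 were within 2-fold over the 3 Succari libraries.

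Central metabolism was represented by PGI and a malate dehydrogenase gene, both raised in every Succari library at 142 DPA. PGI (Cs3g24700), the cytosolic glucose-6-phosphate isomerase, had 235, 219.5 and 160.3 CPM in Succari at 142 DPA, against 52.4, 71.4 and 115 CPM as the lowest, median and highest of the others. At 45 DPA it had 39.7, 41.0 and 43.0 CPM in Succari, against 38.7, 47.3 and 54.0 CPM in the others. The groups were thus apart at the later stage and overlapped at the earlier one. PGI rose by 2.32 on the log2 scale in Succari and 0.59 in the others, a difference of 1.73 (SE 0.179, edgeR adjusted p = 1.03e-06), and it was beyond each of the 3 varieties taken singly. With replicate 3 alone the difference was 1.30 (edgeR adjusted p = 0.00013). Cs1g03610, the homolog of cytosolic NAD-dependent malate dehydrogenase 2, had 6.99, 12.6 and 9.52 CPM in Succari at 142 DPA, against 0.347, 1.38 and 2.39 CPM in the others. Its 45 DPA levels were 1.35, 1.83 and 1.41 CPM in Succari, against 0.197, 0.851 and 1.60 CPM in the others. Succari lay above all others at 142 DPA and within their range or just above it at 45 DPA. The difference was 2.24 (SE 0.526, edgeR adjusted p = 0.00421), and 2.15 with replicate 3 alone (edgeR adjusted p = 0.0339).

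Further metabolism genes were less even. CYP76C4 (Cs4g14130), a cytochrome P450 of a family that in Arabidopsis oxidizes monoterpenols, had 81.2, 65.6 and 15.3 CPM in Succari at 142 DPA, against 10.2, 12.8 and 23.8 CPM in the others. Replicate 3 fell within the range of the others, and the difference of 2.13 (edgeR adjusted p = 0.0015) was 0.22 with that library alone (edgeR adjusted p = 0.778). Cs5g20010, a homolog of hyoscyamine 6-dioxygenase, which acts in tropane alkaloid synthesis in nightshades, had 6.99, 12.5 and 16.6 CPM in Succari at 142 DPA, against 0.868, 4.64 and 10.9 CPM in the others. At 45 DPA it had 0.194, 0.203 and 0.527 CPM in Succari, against 0.591, 1.19 and 2.13 CPM in the others, so that Succari lay below all 9, though this was not called (edgeR adjusted p = 0.0742). Its stage-change difference of 3.27 (SE 0.646, edgeR adjusted p = 0.00102) therefore drew on both stages, and it was 3.68 with replicate 3 alone (edgeR adjusted p = 0.00136).

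Transport genes with a higher change in Succari were homologs of carriers of potassium, nucleosides and auxin. KAT3 (Cs4g20090), a regulatory subunit of plant potassium channels, had 5.76, 9.16 and 10.3 CPM in Succari at 142 DPA, against 0.974, 1.59 and 3.28 CPM in the others. It had 0.967, 1.01 and 0.702 CPM in Succari at 45 DPA, against 0.266, 1.13 and 1.95 CPM in the others. The groups did not overlap at 142 DPA and fully overlapped at 45 DPA, with a difference of 2.54 (SE 0.498, edgeR adjusted p = 0.000963) that was 2.78 with replicate 3 alone (edgeR adjusted p = 0.00345). FUR1 (Cs2g06990), a nucleoside transporter homolog, had 5.59, 4.40 and 2.05 CPM in Succari at 142 DPA, against 0.197, 0.772 and 1.36 CPM in the others, and its difference was 3.29 (edgeR adjusted p = 0.0205). FUR1 lost its call with replicate 3 alone (2.25, edgeR adjusted p = 0.265) and in 3 of 33 alternatives. ABCB21 (orange1.1t01769), an auxin transporter in Arabidopsis, had 18.7, 18.9 and 9.145 CPM in Succari at 142 DPA, against 1.99, 4.64 and 13.4 CPM in the others. Replicate 3 overlapped the others for ABCB21, and the difference of 1.36 (edgeR adjusted p = 0.0182) was 0.51 with that library alone (edgeR adjusted p = 0.618). For ABCB21 the difference from Bingtang taken singly was -0.14, against 1.38 from Newhall and 2.85 from Xinhui.

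Of the signaling and transcription genes, 3 of 6 and 2 of 7 had a called higher change in Succari, and none a called lower one. CERK1 (Cs2g02680), the chitin receptor kinase of Arabidopsis, had 2.79, 4.21 and 4.67 CPM in Succari at 142 DPA, against 0.434, 1.38 and 1.81 CPM in the others, with a difference of 2.13 (edgeR adjusted p = 0.0129). CRK8 (Cs1g01170), a cysteine-rich receptor-like kinase, had 1.40, 2.20 and 2.24 CPM in Succari at 142 DPA, against 0, 0 and 0.868 CPM in the others. Its difference of 4.29 (edgeR adjusted p = 0.0284) rests on 32 reads in Succari and 8 in the others at that stage, and its call was lost in 6 of 33 alternatives and with replicate 3 alone (edgeR adjusted p = 0.093). Cs6g05010, a probable leucine-rich repeat receptor kinase, had the smallest called higher difference of the list, 1.14 (edgeR adjusted p = 0.0313), which lost its call in 6 of 33 alternatives and with replicate 3 alone (edgeR adjusted p = 0.144). For Cs6g05010 the difference from Bingtang taken singly was 0.30, against 1.02 from Newhall and 2.10 from Xinhui. UNE10 (orange1.1t00185), a basic helix-loop-helix regulator, had 13.1, 6.595 and 1.87 CPM in Succari at 142 DPA, against 0, 0 and 1.75 CPM in the others, and its fitted difference was 6.50 (edgeR adjusted p = 0.00661). Xinhui had 0 reads of UNE10 at 142 DPA, so that size depends on how the fit treats an empty group, and the call was lost with replicate 3 alone (edgeR adjusted p = 0.0707). Remorin-like Cs5g03630, of a family of plasma membrane proteins, had 11.4, 13.4 and 11.6 CPM in Succari at 142 DPA, against 0.974, 2.89 and 3.86 CPM in the others. Its difference was 1.54 (edgeR adjusted p = 0.0179), and it lost its call in 2 of 33 alternatives and with replicate 3 alone (1.41, edgeR adjusted p = 0.144).

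RD21A (proteolysis), HSP18.2 (stress) and EMB2757 (development) also had a called higher change in Succari, each as the only such gene in its category. The remaining listed genes in these categories were not called in either direction. RD21A (Cs8g05200), a drought-induced cysteine protease in Arabidopsis, had 11.9, 6.78 and 2.61 CPM in Succari at 142 DPA, against 0, 0.217 and 0.521 CPM in the others, with a difference of 4.70 (SE 1.04, edgeR adjusted p = 0.00266). HSP18.2 (Cs7g32260), a small heat shock protein, had 239.6, 94.7 and 12.1 CPM in Succari at 142 DPA, against 3.07, 5.43 and 8.68 CPM in the others. At 45 DPA it had 0.194, 0 and 0 CPM in Succari, against 0.170, 0.341 and 0.751 CPM in the others. Succari lay above all others at 142 DPA, yet its libraries spread widely, and the difference of 6.72 had an SE of 2.35 (edgeR adjusted p = 0.0468) and lost its call in 21 of 33 alternatives and with replicate 3 alone. EMB2757 (Cs4g15700), named for an embryo-defective Arabidopsis mutant, had 18.5, 14.8 and 14.2 CPM in Succari at 142 DPA, against 4.42, 7.72 and 8.91 CPM in the others, with a difference of 1.35 (edgeR adjusted p = 0.00316) that was 1.12 with replicate 3 alone (edgeR adjusted p = 0.0812).

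Of the higher genes of unknown function, Cs7g30380 had 26.6, 26.2 and 3.55 CPM in Succari at 142 DPA, against 0, 0.928 and 2.52 CPM in the others, and its difference of 3.35 (edgeR adjusted p = 0.0215) was 0.85 with replicate 3 alone (edgeR adjusted p = 0.724). Cs8g10300 had 117 reads in Succari (8.73, 10.8 and 1.49 CPM by replicate) and 1 in the others at 142 DPA. At 45 DPA it had 0 in Succari and 8 in the others. Cs1g20290 had 98 reads in Succari (6.64, 10.1 and 0.933 CPM by replicate) and 2 in the others at 142 DPA. At 45 DPA it had 2 in Succari and 8 in the others. Replicate 3 was thus the lowest Succari library at 142 DPA for each of these genes. Both were nearly silent outside Succari fruits at 142 DPA, and their fitted differences of 10.40 and 6.95 (edgeR adjusted p = 0.00855 and 0.0143) come with empty groups and are no measure of size. Cs5g23250 (1.16, edgeR adjusted p = 0.0417) and orange1.1t01135 (2.20, edgeR adjusted p = 0.0497) lost their calls in 16 and 23 of 33 alternatives. With replicate 3 alone, Cs1g20290, Cs5g23250 and orange1.1t01135 lost their calls and Cs8g10300 kept it.

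Among the listed genes with a lower change in Succari were a lipid transfer homolog, a lipid metabolism gene and KCS6. Other listed lipid genes were not called in the stage-change difference and went both ways at 142 DPA. On the log2 scale Succari was then higher in lipid transfer homolog Cs5g31010 (2.54), oleosin Cs2g27550 (10.29) and GDSL esterase or lipase Cs5g18850 (3.69). It was lower in monoglyceride lipase Cs2g06500 (-1.06). Cs5g24670, a putative lipid transfer or seed storage protein, had 2.45, 3.30 and 5.04 CPM in Succari at 142 DPA, against 11.4, 20.6 and 55.2 CPM in the others. At 45 DPA it had 74.1, 71.0 and 73.6 CPM in Succari, against 34.1, 37.7 and 48.4 CPM in the others. Succari thus lay above all 9 libraries early and below all 9 late, with the early difference not called (0.84, edgeR adjusted p = 0.0541). Its stage-change difference was -3.77 (SE 0.518, edgeR adjusted p = 3.06e-05). Cs8g06880, placed under lipid metabolism by the study, had 0.699, 0.916 and 0.187 CPM in Succari at 142 DPA, against 1.05, 4.34 and 6.56 CPM in the others, with a difference of -2.71 (SE 0.485, edgeR adjusted p = 0.000415). KCS6 (Cs7g13310), which in Arabidopsis elongates very-long-chain fatty acids for surface wax, had 13.6, 14.8 and 15.7 CPM in Succari at 142 DPA, against 17.3, 39.2 and 63.2 CPM in the others. The same gene had 84.0, 84.8 and 85.0 CPM in Succari at 45 DPA, against 73.3, 91.3 and 111 CPM in the others. KCS6 fell in both, by 2.53 on the log2 scale in Succari and by 1.34 in the others (difference -1.19, SE 0.229, edgeR adjusted p = 0.000825). Taken singly, its difference was -0.59 from Bingtang and -0.97 from Newhall, against -2.01 from Xinhui.

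Cs7g25170 and Cs8g18390, of unknown function, also fell further in Succari. Cs7g25170 had 3.32, 3.66 and 4.85 CPM in Succari at 142 DPA, against 4.48, 19.3 and 31.1 CPM in the others, with a difference of -2.23 (edgeR adjusted p = 0.000597, and 0.0515 with replicate 3 alone). Cs8g18390 had 4.54, 3.30 and 4.67 CPM in Succari at 142 DPA, against 7.38, 9.86 and 13.9 CPM in the others, with a difference of -1.24 (edgeR adjusted p = 0.000196). The groups did not overlap for Cs8g18390, and 1 library of the others reached into the Succari range for Cs7g25170.

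**Figure D4:**
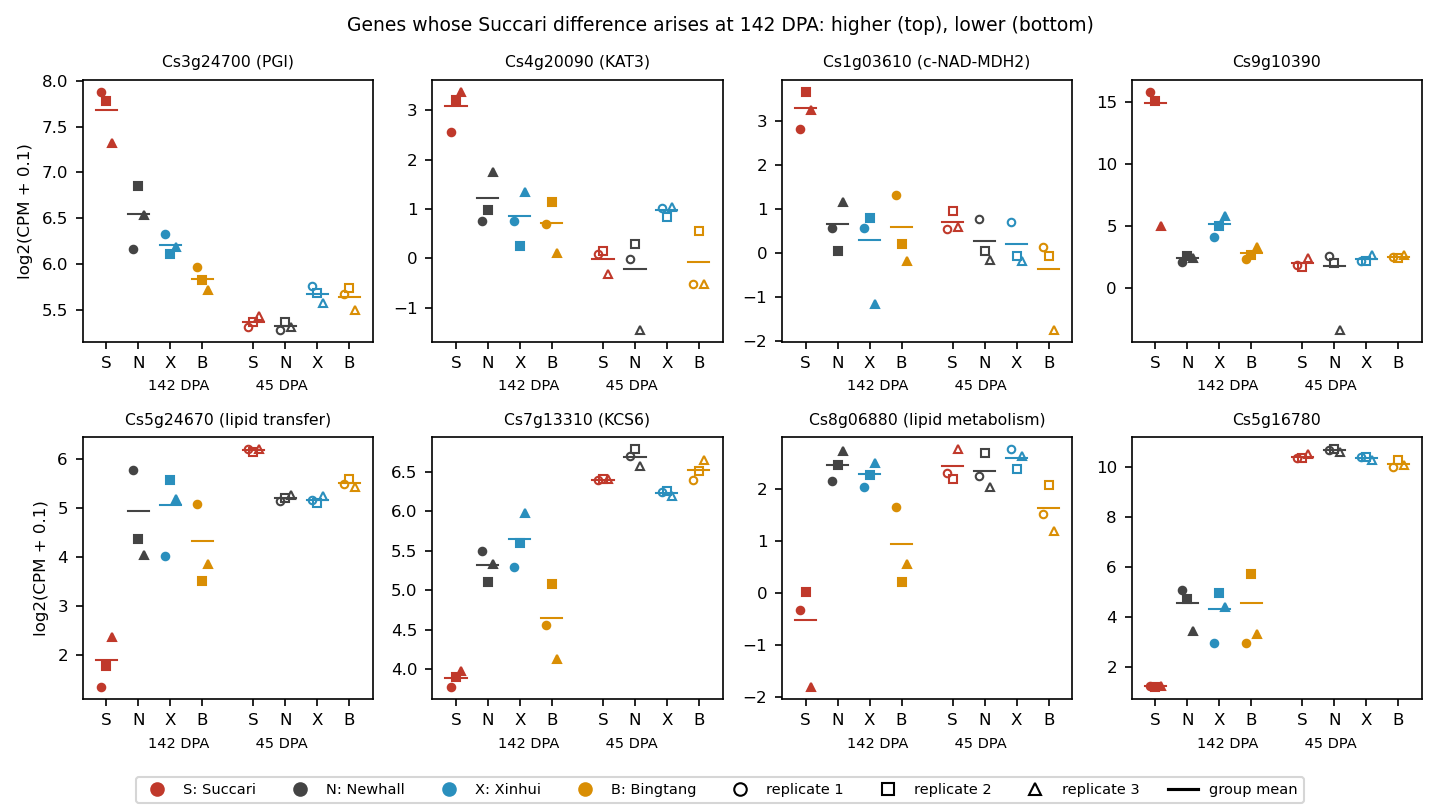
Points give log2(CPM + 0.1) in each library, horizontal bars the group means, with 142 DPA (filled) left of 45 DPA (open) and Succari left of Newhall, Xinhui and Bingtang, for 4 genes with a higher (top) and 4 with a lower stage-change difference (bottom). For PGI the Succari libraries at 142 DPA (160.3 to 235 CPM) lay above all others (115 CPM at most), and for Cs9g10390 replicate 3 (32.3 CPM) lay far below replicates 1 and 2.

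Over the whole table, without names for the IDs, the highest differences arising at 142 DPA, among genes called against each variety, were those of Cs9g10390 and Cs9g10380, whose IDs are neighbours in number. Cs9g10390 had 57440, 34385 and 32.3 CPM in Succari at 142 DPA, against 4.34, 6.31 and 58.0 CPM in the others. Cs9g10380 had 40618, 29239 and 27.1 CPM in Succari at 142 DPA, against 3.79, 6.13 and 62.6 CPM in the others. Together they took 9.81, 6.36 and 0.00594% of the reads of the 3 Succari libraries. Only replicates 1 and 2 stood above the other varieties, and the differences of 11.72 and 11.19 (edgeR adjusted p = 4.26e-05 and 8.33e-05) were 1.72 and 1.33 with replicate 3 alone (edgeR adjusted p = 0.135 and 0.301). The lowest such differences were those of Cs5g24670, given above, and Cs5g16780. Cs5g16780 had 2.27, 2.20 and 2.24 CPM in Succari at 142 DPA, against 7.598, 20.99 and 52.8 CPM in the others, and 1323, 1314 and 1482 CPM in Succari at 45 DPA, against 1036, 1352 and 1712 CPM in the others. It was abundant and level in all fruits early and then fell everywhere, further in Succari (difference -3.27, SE 0.709, edgeR adjusted p = 0.00217, and 0.0879 with replicate 3 alone).

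The genes arising at 45 DPA were sorted by a call at 45 DPA and none at 142 DPA, so their levels at both stages are given as a description. The 74 higher genes had a median of 12.5 CPM in Succari and 14.4 CPM in the others at 142 DPA, and 5.27 CPM in Succari and 14.3 CPM in the others at 45 DPA. The 85 lower genes had 9.09 CPM in Succari and 13.3 CPM in the others at 142 DPA, and 9.82 CPM in Succari and 3.95 CPM in the others at 45 DPA. In the first class 20 genes fell in the others with no called change in Succari. Another 20 rose in Succari with no called change in the others. In that class 18 rose in both, 8 fell in both and 2 had no called change in either. The remaining 6 rose in Succari and fell in the others. In the second class, 33 rose in the others with no called change in Succari. Another 26 fell in Succari with no called change in the others. Of the rest, 19 rose in both, 4 fell in both and 3 had no called change in either. None of the 72 listed genes was in either class, so these genes are known by ID alone.

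Cs8g19730 and Cs5g16360 were low in young Succari fruits. Cs8g19730 had 54.1, 43.1 and 31.7 CPM in Succari at 142 DPA, against 13.4, 23.0 and 114 CPM in the others, and 10.6, 12.2 and 13.2 CPM in Succari at 45 DPA, against 51.4, 79.9 and 197 CPM in the others. It rose by 1.85 in Succari and fell by 1.63 in the others on the log2 scale, a difference of 3.47 (SE 0.269, edgeR adjusted p = 1.49e-08). Cs5g16360 had 175, 138 and 159 CPM in Succari at 142 DPA, against 36.8, 81.9 and 109.8 CPM in the others, and 18.0, 24.3 and 20.2 CPM in Succari at 45 DPA, against 52.4, 70.0 and 90.4 CPM in the others. Succari lay below all 9 at 45 DPA and above all 9 at 142 DPA, where its difference of 0.97 fell just short of 2-fold (stage-change difference 2.73, SE 0.236, edgeR adjusted p = 7.49e-08). With replicate 3 alone the differences were 2.95 and 2.68 (edgeR adjusted p = 1.93e-06 for each).

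Cs3g12000 and Cs6g16000 were instead high in young Succari fruits, and the other varieties rose towards or past that level. Cs3g12000 had 70.2, 77.7 and 92.2 CPM in Succari at 142 DPA, against 87.3, 102 and 117 CPM in the others, and 119.7, 112 and 117 CPM in Succari at 45 DPA, against 4.79, 32.7 and 68.9 CPM in the others. The difference was -2.65 (SE 0.125, edgeR adjusted p = 9.03e-12), from -4.57 against Xinhui to -1.25 against Bingtang. Cs6g16000 had 18.9, 20.0 and 28.7 CPM in Succari at 142 DPA, against 10.1, 65.1 and 96.6 CPM in the others, and 19.5, 18.9 and 20.6 CPM in Succari at 45 DPA, against 3.32, 8.91 and 11.2 CPM in the others. The change was 0.19 in Succari, without a call, and 2.43 in the others on the log2 scale, a difference of -2.24 (SE 0.174, edgeR adjusted p = 1.49e-08).

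In 40 genes Succari crossed the mean of the other varieties between the stages, 28 towards higher and 12 towards lower. The SDR gene Cs9g17670, of the short-chain dehydrogenase/reductase family of oxidoreductases, was the only listed gene among them. It had 1.57, 2.20 and 4.11 CPM in Succari at 142 DPA, against 0.197, 0.421 and 1.19 CPM in the others, and 0.194, 0 and 0 CPM in Succari at 45 DPA, against 0, 0.679 and 1.07 CPM in the others. The Succari libraries lay above all others late and among the lowest early, though on few reads early (difference 5.11, SE 0.969, edgeR adjusted p = 0.000713). Cs8g05990 had 25.5, 20.3 and 10.8 CPM in Succari at 142 DPA, against 0.421, 2.37 and 46.7 CPM in the others, and 1.94, 1.83 and 1.93 CPM in Succari at 45 DPA, against 6.50, 11.1 and 29.5 CPM in the others. Its difference was 4.97 (SE 0.387, edgeR adjusted p = 1.49e-08), although Xinhui exceeded Succari at both stages, so that the stage change and not the level was beyond each variety. Similarly, orange1.1t02220 had 19.2, 16.3 and 17.5 CPM in Succari at 142 DPA, against 0.779, 5.94 and 29.3 CPM in the others, and 1.35, 3.25 and 2.46 CPM in Succari at 45 DPA, against 7.29, 14.4 and 18.0 CPM in the others (difference 4.21, SE 0.344, edgeR adjusted p = 3.36e-08).

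Crossing in the other direction were Cs1g16390 and Cs7g03670. Cs1g16390 had 40.3, 37.9 and 51.3 CPM in Succari at 142 DPA, against 18.3, 151 and 375 CPM in the others, and 97.7, 82.3 and 93.8 CPM in Succari at 45 DPA, against 3.32, 25.9 and 41.5 CPM in the others. It fell by 1.09 in Succari and rose by 2.55 in the others on the log2 scale, a difference of -3.63 (SE 0.206, edgeR adjusted p = 1.91e-10), and Xinhui lay below Succari at both stages. Cs7g03670 had 1.75, 1.65 and 2.80 CPM in Succari at 142 DPA, against 1.22, 9.28 and 34.3 CPM in the others, and 16.1, 18.3 and 18.3 CPM in Succari at 45 DPA, against 1.56, 6.40 and 9.53 CPM in the others (difference -3.46, SE 0.322, edgeR adjusted p = 2.26e-07).

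Of the 28 genes that differed at both stages with the same sign, 17 had a higher and 11 a lower change in Succari. Cs6g16160, a listed gene of unknown function, had 2.79, 7.14 and 2.24 CPM in Succari at 142 DPA, against 17.9, 101 and 270.2 CPM in the others. Its early levels were 52.0, 57.0 and 48.8 CPM in Succari, against 106, 136 and 147 CPM in the others. Succari was below all 9 libraries at both stages, and the gap was -4.56 at 142 DPA, against -1.41 at 45 DPA, on the log2 scale, a difference of -3.15 (SE 0.366, edgeR adjusted p = 4.3e-06).

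**Figure D5:**
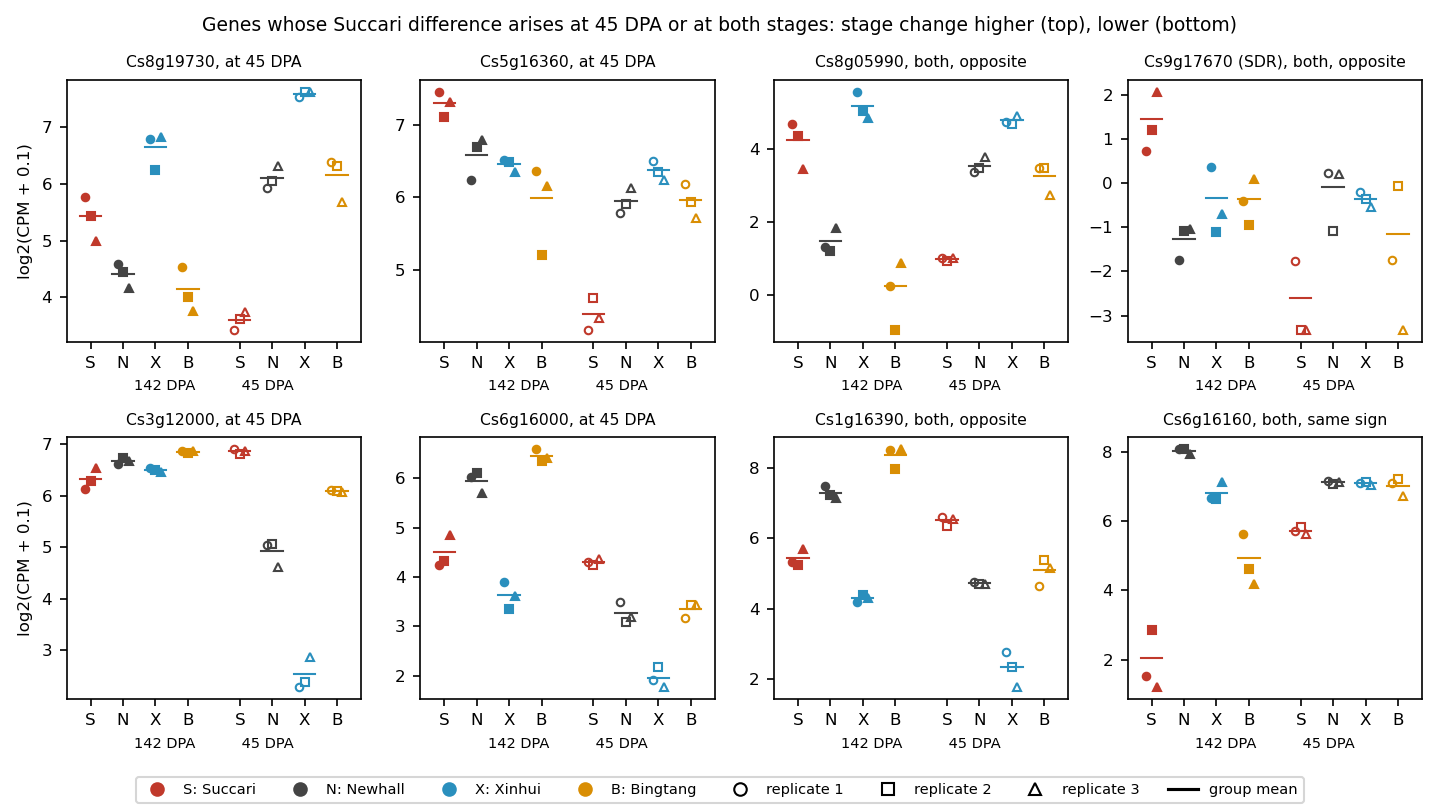
Points give log2(CPM + 0.1) in each library, horizontal bars the group means, with 142 DPA (filled) left of 45 DPA (open) and Succari left of Newhall, Xinhui and Bingtang, for genes arising at 45 DPA or called at both stages. Cs8g19730 in Succari at 45 DPA (10.6 to 13.2 CPM) lay below all 9 others (at least 51.4 CPM), and in the same panel Xinhui lay above Succari at both stages.

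Taken one variety at a time, the Succari change was higher than that of Newhall in 899 genes (4.33% of genes tested) and lower in 372 (1.79%). Against Xinhui it was higher in 902 (4.35%) and lower in 435 (2.10%), and against Bingtang higher in 1730 (8.34%) and lower in 990 (4.77%). In 419 genes the call held against all 3 with the same sign, 347 higher and 72 lower, and without Succari 142 DPA replicate 3 in 845. With replicate 3 as the only Succari library of that stage it held in 90. Of the 419, 287 were among the higher and 33 among the lower genes arising at 142 DPA, and 24 and 18 among those arising at 45 DPA. When each other variety took the place of Succari, edgeR called 429 genes for Newhall (2.07%), 201 higher and 228 lower, 980 for Xinhui (4.73%), 471 higher and 509 lower, and 1468 for Bingtang (7.08%), 699 higher and 769 lower. These contrasts share libraries and are given side by side, and the surplus of higher over lower calls was seen for Succari and for none of the other 3.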

How the data were processed

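The authors deposited one table of counts, the numbers of unique reads per gene without normalization (its empty cells, marked with a dash, are 0), for 24166 genes and 24 libraries. Its name speaks of RPKM, but the values are whole numbers. The aligner is not given in the sources used here, nor is the build. The study tested stage changes with edgeR at 2-fold and a false discovery rate of 0.05, and those limits were kept. Libraries held 3.8e+06 to 5.9e+06 counted reads, and CPM used library totals. One edgeR 4.0.16 quasi-likelihood fit (R 4.3.3, TMM scaling, factors 0.898 to 1.103) covered all 24 libraries in 8 groups of variety and stage. The test covered the 20739 genes that reached 0.3 CPM in 3 or more libraries, with p-values adjusted by Benjamini-Hochberg over these genes. The scripts were tested on simulated counts. Calculations also used Python 3.11.15, numpy 2.4.6, pandas 2.3.3 and matplotlib 3.10.9, and replicate spans used log2(CPM + 0.5).

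The study calls the 3 libraries of a group biological replicates. The sources used here do not say whether they came from separate trees, and p-values measure the spread between these samples. Each gene has a single estimate of spread for the 8 groups, so an SE can understate the spread of an uneven group.

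The comparison, the gene lists and the rules were chosen with earlier results of these data known. Named are the genes of the study's list of 72 that were called, and, per direction, the 2 IDs with the most extreme difference in each of 3 classes (arising at 142 DPA, arising at 45 DPA, both stages with opposite sign) among genes with at least 1 CPM in each group that were called against each other variety. Listed genes given by library beyond the 14 of most extreme difference were chosen after their values were seen. Gene names are those of the Arabidopsis homologs in the study's list, since 0 of 24166 IDs matched the RefSeq table, and no sequence is shown. Alternatives were other scalings, filters, limma 3.58.1 with 3 pseudocounts, DESeq2 1.42.0, the replicate number as a block, the removal of each library singly and, added after the data were seen, Succari at 142 DPA with replicate 3 alone.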

Additional observations from a re-analysis of the deposited data

Results flagged for a closer look

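The change between 45 and 142 DPA differed between Succari and the mean of the other 3 varieties, by edgeR's quasi-likelihood test of that difference itself, in 1376 genes that were higher and 399 that were lower. The named genes that met the same test follow, each with its fitted log2 difference, which is no measure of size for Cs8g10300, Cs1g20290 and orange1.1t00185, each with 0 reads in at least 1 group.

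Arising at 142 DPA and higher in Succari were Cs9g10390 (11.72), Cs9g10380 (11.19), Cs8g10300 (10.40), Cs1g20290 (6.95), Cs7g32260 (6.72), orange1.1t00185 (6.50), Cs8g05200 (4.70), Cs1g01170 (4.29), Cs7g30380 (3.35), Cs2g06990 (3.29), Cs5g20010 (3.27), Cs4g20090 (2.54), Cs1g03610 (2.24), orange1.1t01135 (2.20), Cs4g14130 (2.13), Cs2g02680 (2.13), Cs3g24700 (1.73), Cs5g03630 (1.54), orange1.1t01769 (1.36), Cs4g15700 (1.35), Cs5g23250 (1.16) and Cs6g05010 (1.14). Arising at 142 DPA and lower were Cs5g24670 (-3.77), Cs5g16780 (-3.27), Cs8g06880 (-2.71), Cs7g25170 (-2.23), Cs8g18390 (-1.24) and Cs7g13310 (-1.19). Arising at 45 DPA were Cs8g19730 (3.47), Cs5g16360 (2.73), Cs3g12000 (-2.65) and Cs6g16000 (-2.24). Differing at both stages were Cs9g17670 (5.11), Cs8g05990 (4.97), orange1.1t02220 (4.21), Cs1g16390 (-3.63), Cs7g03670 (-3.46) and, with the same sign at both, Cs6g16160 (-3.15).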

How the results depend on the processing

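No named gene changed the sign of its difference under any of 33 alternatives, and 26 of 38 kept their call in all of them, whereas 17 lost it with Succari 142 DPA replicate 3 alone. That setting, added after the data were seen, gave 335 higher and 223 lower genes, of which 183 and 76 arose at 142 DPA and 41 higher ones at 45 DPA, 20 with opposite and 6 with the same sign, 168 called at neither stage and 90 beyond each variety. Its group then has 1 library, assumed to vary like the other groups. With limma, 135 lower genes arose at 45 DPA at a pseudocount of 0.1, 20 had opposite sign at a pseudocount of 1, and 15, 17 and 12 had the same sign at 0.1, 0.5 and 1. Stage by the sum of both differences gave 41 higher genes at 45 DPA. The share of higher calls was 77.5%, against 60.0% with replicate 3 alone and 68.4% to 78.8% under the other tests, scalings and filters. The causes were not tested.

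Leaving out each library in turn gave 975 to 1749 higher and 324 to 581 lower genes, 716 to 1363 and 103 to 235 arising at 142 DPA, 51 to 77 and 60 to 99 arising at 45 DPA, 25 to 62 with opposite and 15 to 59 with the same sign, 286 to 448 called at neither stage and 306 to 845 beyond each variety. Each highest count except that of 77, which came without Xinhui 142 DPA replicate 1, was without Succari 142 DPA replicate 3. With the replicate number as a block, 1334 genes were higher and 401 lower. Only 1 of 84 pairs of same-numbered libraries correlated above 0.1 in their deviations from the group means. A weak correlation over all genes cannot show whether same-numbered samples were paired.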

Other observations

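By ID, 227 of the 1376 higher genes (16.5%) stood next to another higher gene, against 11.2% of all genes tested that stood next to one. For the 399 lower genes the shares were 4.51% and 3.27%, and the differences between these shares were not tested. Newhall 45 DPA replicate 3 had 0 CPM of both Cs9g10390 and Cs9g10380, where the summed level of these IDs in the other libraries at 45 DPA was 7.70 to 11.3 CPM. At 142 DPA their summed level was 59.4 CPM in Succari replicate 3, against 34.8, 57.4 and 121 CPM in Xinhui, and Xinhui replicate 3 also held the highest summed level of the 5 seed maturation genes among the 9 other libraries.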
